A study of Arabidopsis thaliana with 24 samples.

Results

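The genes described here build, modify, move and break down the aliphatic glucosinolates of *Arabidopsis thaliana*, together with the core enzymes that the aliphatic and the indolic branch share. Members were taken by name, from a list of genes of methionine chain elongation, aliphatic core synthesis, side-chain change, transport and the myrosinases, with the 3 MYB regulators of the branch, a list drawn up with earlier results of these data known. The list held 32 of the 33331 gene identifiers counted. Of these, 30 passed the filter on low counts and were tested, and the regulators *MYB29* (AT5G07690) and *MYB76* (AT5G07700) did not pass it.

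RNA was sequenced from whole seedlings of 8 genotypes, with 3 libraries each and 24 in all. The culture was the same for all genotypes: anthocyanin inductive conditions (AIC), that is, shaken liquid medium with 3% sucrose for 4 days under 24 h of light per day. They comprised Col-0 (wild type), the mutant *tt19-8*, and 6 suppressors of it that make anthocyanins again in spite of the *tt19-8* allele, numbered S1, S2, S4, S5, S7 and S8. *tt19-8* is a T-DNA insertion (SALK_105779) in Col-0 that knocks out *TT19*, a glutathione S-transferase gene needed for anthocyanin accumulation, and every suppressor line carries this insertion too. The suppressors came from EMS (ethyl methanesulfonate) mutagenesis. By the study's account the lesion of S7 hits a splice site of *DCL4* and that of S5 a splice site of *SGS3*. The other 4 lines are *RDR6* mutants, with a missense lesion in S4 and nonsense lesions in S1, S2 and S8. All 3 genes serve secondary siRNA production. Each line is a lone EMS isolate, so other EMS changes in it cannot be told apart from the named lesion. Nothing states that the 3 libraries of a genotype came from separate cultures, so p-values measure the spread between these libraries, which may be technical.

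Libraries held 25.8 to 73.4 M counts. *TT19* lay between 125 and 133 CPM (counts scaled to library size) in Col-0, between 0.936 and 1.54 CPM in *tt19-8* and between 1.84 and 11.6 CPM in the lines, far below Col-0 in every library labelled as carrying the insertion. Several libraries stood apart from the others of their genotype. In S2 replicate 3 the summed level of 15 chain-elongation and aliphatic core genes was 0.502 of the mean of replicates 1 and 2, and the summed level of 5 seed storage genes was 3.82 times it. S5 replicate 3 went the opposite way, with 1.33 for the 15 genes and 0.433 for seed storage. Replicate 3 of *tt19-8*, S2 and S8 had 2.24 to 4.8 times the summed level of 9 low-oxygen genes of its companions, a list that includes *SUS4* and *ADH1*. Counts of members that rest on these libraries are given below with and without them.

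Glucosinolates are sulfur-rich defence compounds of the Brassicales. The aliphatic ones start from methionine, whose side chain is lengthened in rounds of deamination, condensation, isomerization and oxidative decarboxylation; the lengthened amino acid is then turned into an aldoxime, joined to sulfur, glucosylated and sulfated, and its side chain may be oxidized afterwards. *MYB28*, *MYB29* and *MYB76* switch this branch on, the transporters GTR1 and GTR2 load the products into the phloem, and when tissue is damaged the myrosinases cleave them into toxic isothiocyanates and nitriles.

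Levels of the members spanned a wide range. Per kb of exon, the mean over the 24 libraries was highest for *FMO GS-OX4*, with 156 CPM per kb, for *GGP1*, with 150, and for *IPMI LSU1*, with 144. Next came *SUR1*, *TGG1*, *UGT74B1* and *GTR2* at 92.6, 72, 67.3 and 65.2 CPM per kb. The chain-elongation enzymes *MAM3* and *BCAT4* had 55.5 and 48.9 CPM per kb, and *MYB28* had 9.83. At the low end stood *CYP79F1* at 0.522, *AOP3* at 0.776, *AOP2* at 0.487 and *TGG2* at 0.284 CPM per kb. *MYB29* had 2 reads and *MYB76* 1 read over all 24 libraries, so *MYB28* was the one member of the regulator trio that was detectable at this depth, where 3 counts correspond to between 0.0414 and 0.116 CPM.

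Upstream sequences are shown for 5 members because these genes carry the contrasts described next. *CYP79F2* and *CYP79F1* are tandem neighbours that encode the enzymes of the same aldoxime step, and their levels differed widely. *IPMI LSU1*, *CYP83A1* and *SUR1* are the 3 members with a G-box, the motif read by the MYC factors that work with the aliphatic MYBs. Each sequence is the 250 bases before the annotated gene start, 5′ to 3′ on the gene's strand, from the RefSeq genome TAIR10.1. Capitals mark a G-box (CACGTG) or the AC-element core ACCNANC that many plant MYB proteins bind, on either strand. The regions are chr1:5604794-5605043 on the plus strand for *CYP79F2*, chr1:5608432-5608681 on the plus strand for *CYP79F1*, chr4:7807985-7808234 on the minus strand for *IPMI LSU1*, chr4:7992430-7992679 on the minus strand for *CYP83A1* and chr2:8880441-8880690 on the minus strand for *SUR1*.
CYP79F2: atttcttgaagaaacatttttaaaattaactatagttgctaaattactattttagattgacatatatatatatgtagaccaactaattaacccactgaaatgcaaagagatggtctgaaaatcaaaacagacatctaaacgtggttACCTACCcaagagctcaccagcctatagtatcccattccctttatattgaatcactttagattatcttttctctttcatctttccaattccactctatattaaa
CYP79F1: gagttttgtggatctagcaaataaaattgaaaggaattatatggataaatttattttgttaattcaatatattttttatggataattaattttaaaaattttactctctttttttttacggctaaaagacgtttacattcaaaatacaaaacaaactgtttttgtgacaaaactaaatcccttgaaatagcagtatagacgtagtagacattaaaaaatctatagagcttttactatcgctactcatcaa
IPMI LSU1: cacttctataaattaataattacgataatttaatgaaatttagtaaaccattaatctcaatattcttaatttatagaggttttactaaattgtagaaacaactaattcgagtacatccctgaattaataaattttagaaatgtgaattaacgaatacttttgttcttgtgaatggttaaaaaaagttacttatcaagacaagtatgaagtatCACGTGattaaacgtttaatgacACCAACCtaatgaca
CYP83A1: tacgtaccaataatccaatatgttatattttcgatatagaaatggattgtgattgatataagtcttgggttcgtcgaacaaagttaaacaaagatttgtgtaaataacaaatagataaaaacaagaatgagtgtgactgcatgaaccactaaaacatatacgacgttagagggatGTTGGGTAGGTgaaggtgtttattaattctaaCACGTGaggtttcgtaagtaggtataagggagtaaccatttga
SUR1: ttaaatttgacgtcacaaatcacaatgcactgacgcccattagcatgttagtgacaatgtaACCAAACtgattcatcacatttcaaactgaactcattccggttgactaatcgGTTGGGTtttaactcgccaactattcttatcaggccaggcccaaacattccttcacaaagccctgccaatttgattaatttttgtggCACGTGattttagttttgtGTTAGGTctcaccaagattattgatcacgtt

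The first base of the G-box lay 38 bases before the gene start in *IPMI LSU1*, 43 bases before it in *CYP83A1* and 50 bases before it in *SUR1*. It was present in 3 of the 32 members (9.38%) and in 6.58% of 26709 gene promoters of the same length. ACCNANC was present in 12 of the 32 (37.5%), against 27.8% of all promoters. It occurred in *CYP79F2* and not in the 250 bases before *CYP79F1*. These are matches of letters in a window, and no binding was measured here.

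Every tested member differed somewhere among the 8 genotypes. In a joint test over the genotypes (edgeR quasi-likelihood F test, adjusted p under 0.05, which is also the criterion for a call in all that follows), 30 of 30 tested members passed, against 79.9% of all 22089 genes tested. The number was 28 to 30 when 1 library was left out. S7 (*DCL4*) had the highest mean in 17 of the 30 members, and in 14 of the 15 chain-elongation and aliphatic core genes. S1 (*RDR6*) had the lowest mean in 15 of the 30 and in 11 of those 15 genes. How often each genotype was highest or lowest over all genes was not counted. S7 and S1 were also the lines with the most genes called against *tt19-8*, 37.3% and 34% of all tested.

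**Figure D1:**
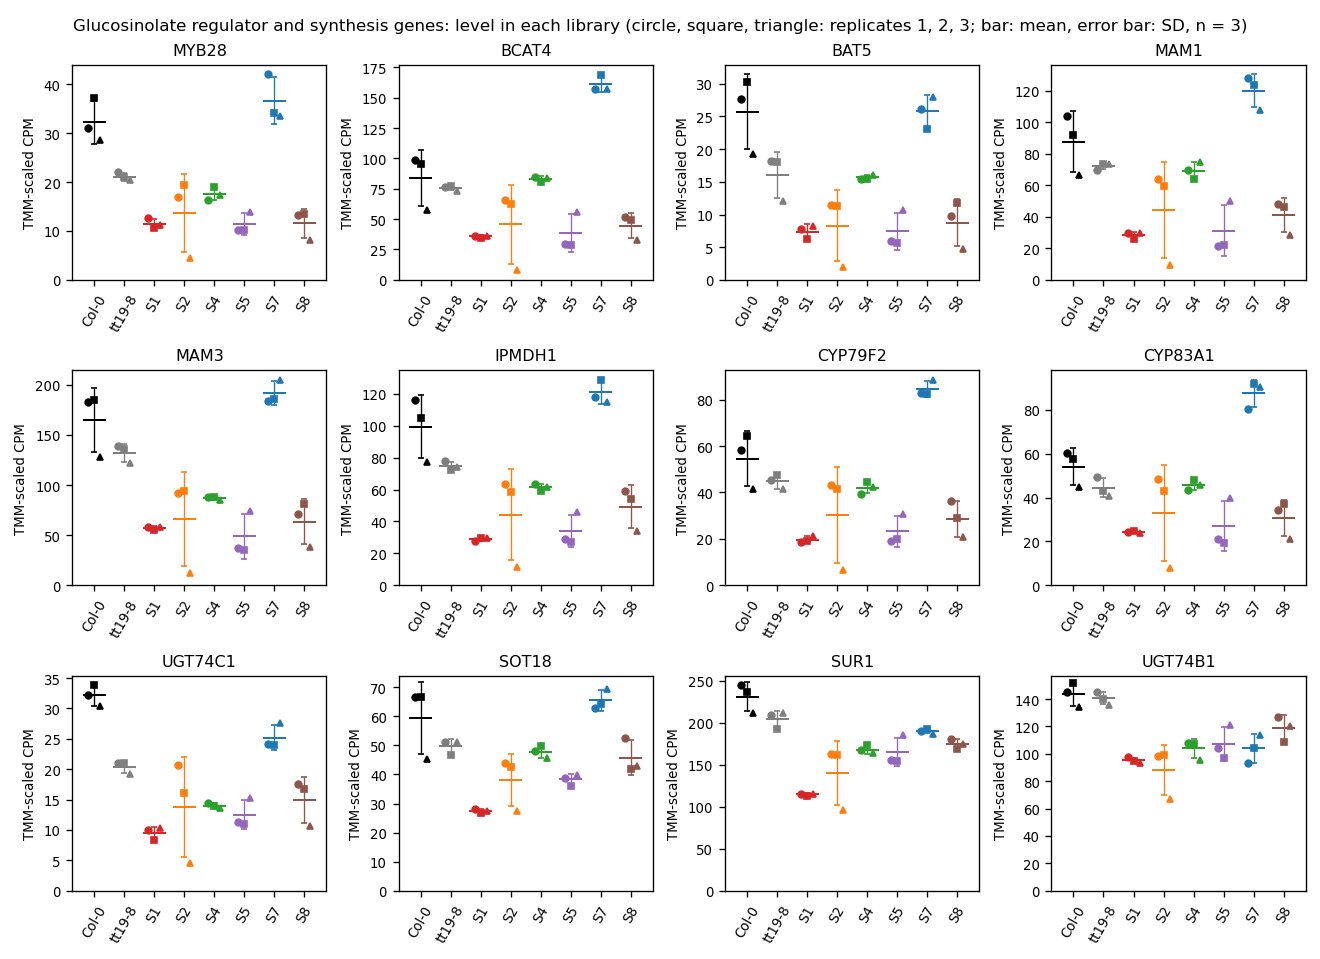
Level of 12 synthesis genes (panels) in the 8 genotypes, in CPM on linear axes from 0; circles, squares and triangles are replicates 1, 2 and 3, horizontal bars are means and error bars are SD (n = 3). For *BCAT4* the S7 libraries sit at 157 to 169 CPM, above every other library, and S2 replicate 3 falls to 8.06 CPM, while *SUR1* and *UGT74B1* are highest in Col-0.

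Summed over the 15 chain-elongation and aliphatic core genes, the level was 1446 to 1511 CPM in the 3 libraries of S7, 1006 to 1350 in Col-0, 964 to 998 in *tt19-8* and 898 to 909 in S4. S8 had 834, 825 and 642 CPM in replicates 1 to 3, and S2 had 940, 901 and 462. S5 had 573, 560 and 751 CPM and S1 had 564 to 590. The S7 libraries therefore all lay above those of Col-0, and the libraries of S1 all lay below those of every genotype except S5 and S2, whose replicate 3 was the lowest of all. In these whole seedlings, fewer cells that express a gene and less RNA per cell cannot be told apart.

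For *tt19-8* against Col-0 few members were called. This sets 1 insertion line against the wild type, so other differences between them cannot be told apart from the loss of *TT19*. Of the 30 tested members 1 rose, the myrosinase *TGG1*, and 1 fell, *IPMI LSU1*, while 7.13% of all genes rose and 6.5% fell. The median log2 fold change of the members was -0.25, beside 0.00 over all genes. For the 15 chain-elongation and aliphatic core genes it was -0.28, and -0.44 without Col-0 replicate 3. Their summed level was lower in all *tt19-8* libraries (964 to 998 CPM) than in all Col-0 libraries (1006 to 1350). At an unadjusted p under 0.05 the count was 7, and DESeq2 called 3. *IPMI LSU1* fell by 0.27 ± 0.07 on the log2 scale (SE, adjusted p = 0.0121) and lost its call without Col-0 replicate 1 (adjusted p = 0.0833). *TGG1* rose by 0.33 ± 0.09 (adjusted p = 0.0167), a call that 3 of the 6 leave-one-library-out fits lost. Without S2 replicate 3 and S5 replicate 3, which lie outside this contrast but enter the shared estimate of spread, 1 member rose and 10 fell, *MYB28*, *BAT5*, *IPMDH1* and *GGP1* among them, with 20% of all genes called.

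The 6 lines were each compared with their parent *tt19-8* and therefore share its 3 libraries. In S1, 2 of the 30 members rose and 18 fell, with a member median of -0.58, where 16.5% of all genes rose and 17.5% fell. In S5, 1 rose and 11 fell (median -0.45), against 12.3% and 12.4% of all genes. In S7 the direction was the other way, with 9 risen and 3 fallen (median 0.38), against 18.1% and 19.2%.

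In S4, 2 members rose and 9 fell (median -0.21), against 7.83% and 10.9% of all genes. In S2, 1 rose and 5 fell (median -0.53), against 9.49% and 9.6%. The S2 median was -0.21 without S2 replicate 3, and with only the 6 libraries compared 1 member was called. The S4 median was -0.13 with DESeq2 or with no filter on low counts. In S8, 2 rose and 3 fell (median -0.31), against 12.6% and 13.1%. The share of members that fell thus exceeded the background most in S1, and in S8 the share of members called was below it.

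**Figure D2:**
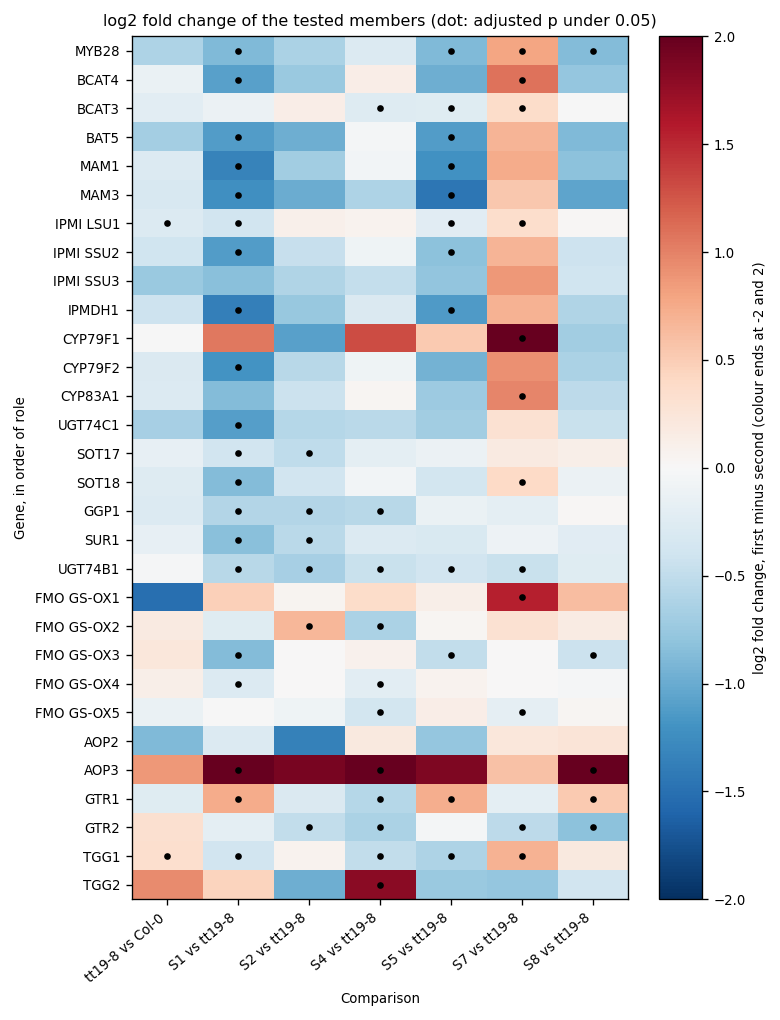
Heat map of the log2 fold change of the 30 tested members (vertical axis, in order of role) in *tt19-8* against Col-0 and in the 6 lines against *tt19-8* (horizontal axis), red for higher and blue for lower in the genotype named first; the colours end at -2 and 2, and a dot marks an adjusted p under 0.05. The columns of S1 and S5 are mostly blue from *MYB28* to *SOT18* and that of S7 is red there, with 18 members fallen in S1 and 9 risen in S7.

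Many of these calls were close to the threshold. Of the 68 calls in the 7 contrasts, 27 held in every alternative analysis, 37 were lost when some library was left out, and 0 changed sign. In S1, 13 of 20 calls held throughout, among them *SUR1*, *SOT18*, *IPMDH1* and *AOP3*, and in S7 5 of 12 held, namely *CYP79F1*, *UGT74B1*, *BCAT3*, *IPMI LSU1* and *TGG1*. In S4 4 of 11 held, in S5 2 of 12 (*GTR1* and *TGG1*), in S8 2 of 5 (*AOP3* and *GTR2*) and in S2 1 of 6 (*UGT74B1*). Without S2 replicate 3 and S5 replicate 3, 16 members rose and 4 fell in S7, 3 and 20 in S1, 2 and 20 in S5, 2 and 14 in S8, 3 and 13 in S4 and 2 and 4 in S2. Over all genes that fit called from 20% in S2 to 41.9% in S7.

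The regulator *MYB28* (AT5G61420) is the principal activator of aliphatic glucosinolate synthesis. It stood at 42.1, 34.2 and 33.5 CPM in the S7 libraries and at 31, 37.1 and 28.5 in Col-0, while *tt19-8* had 22, 21 and 20.4. S1 had 12.7, 10.7 and 11.2 CPM, S5 10.2, 10.1 and 13.9, and S8 13.2, 13.4 and 8.14. All S7 libraries thus lay above all *tt19-8* libraries, and all libraries of S1, S5 and S8 lay below them.

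*MYB28* rose in S7 by 0.79 ± 0.30 on the log2 scale (adjusted p = 0.0419) and fell by 0.88 ± 0.30 in S1, by 0.89 ± 0.31 in S5 and by 0.87 ± 0.31 in S8. Every leave-one-library-out fit lost the call in S1, S7 and S8, and 5 of 6 lost it in S5. S4 had 16.4, 19 and 17.3 CPM and S2 had 17, 19.4 and 4.49, all below the *tt19-8* libraries, and neither passed the test (adjusted p = 0.575 and 0.148). *MYB28* was 1.68 ± 0.31 higher on the log2 scale in S7 than in S5, 1.67 ± 0.30 higher than in S1 and 1.66 ± 0.31 higher than in S8 (adjusted p from 0.000125 to 0.000224), and these calls held in every alternative.

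Chain elongation begins with the aminotransferase BCAT4 (AT3G19710), which deaminates methionine in the cytosol. *BCAT4* stood at 157, 169 and 157 CPM in S7, at 76.8, 77.6 and 73.3 in *tt19-8* and at 35.9, 34.7 and 36.5 in S1. The 3 groups did not overlap. It rose in S7 by 1.08 ± 0.42 on the log2 scale (adjusted p = 0.0458) and fell in S1 by 1.09 ± 0.42 (adjusted p = 0.0495), both calls being lost in each of the 6 leave-one-out fits, and S7 was 2.17 ± 0.43 above S1 (adjusted p = 0.000286). Of the exon length of *BCAT4*, 21.2% is overlapped by another gene, whose reads could have been counted to either. *BAT5* (AT4G12030), the carrier that brings the resulting keto acid into the plastid, fell in S1 and in S5 by 1.12 ± 0.40 on the log2 scale each (adjusted p = 0.0332 and 0.0467).

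The condensation with acetyl-CoA is made by the methylthioalkylmalate synthases MAM1 (AT5G23010) and MAM3 (AT5G23020). *MAM1* had 69.8, 73.6 and 73.5 CPM in *tt19-8*, 29.6, 26.2 and 29.6 in S1 and 21.5, 22.4 and 49.8 in S5. *MAM3* had 139, 136 and 122 CPM in *tt19-8*, 58, 54.7 and 58.1 in S1 and 37.1, 34.8 and 74.4 in S5. For both genes, S5 replicate 3 lay well above the other S5 libraries and still below all of *tt19-8*. *MAM1* fell by 1.34 ± 0.41 in S1 and 1.21 ± 0.41 in S5 on the log2 scale (adjusted p = 0.0152 and 0.0359), and *MAM3* by 1.22 ± 0.43 and 1.44 ± 0.44 (adjusted p = 0.0339 and 0.0197).

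The isomerase and dehydrogenase steps followed the same direction. *IPMI LSU1* (AT4G13430) encodes the large isomerase subunit, which also serves leucine synthesis. It had 215, 220 and 227 CPM in S1, 243, 241 and 255 in S5, 291, 276 and 297 in *tt19-8* and 358, 387 and 360 in S7. These 4 groups did not overlap, and the gene fell by 0.39 ± 0.07 in S1 and 0.23 ± 0.07 in S5 and rose by 0.35 ± 0.07 in S7 on the log2 scale (adjusted p = 0.000218, 0.0217 and 0.000427).

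*IPMI SSU2* (AT2G43100), a small subunit of that isomerase, fell in S1 by 1.11 ± 0.30 on the log2 scale (adjusted p = 0.00626) and in S5 by 0.82 ± 0.30 (adjusted p = 0.0486). *IPMI SSU3* (AT3G58990), the other small subunit on the list, was called in no line, although its values in S1 (15.1, 17.3 and 16.3 CPM) lay below those in *tt19-8* (29.1, 31 and 26.7). The dehydrogenase gene *IPMDH1* (AT5G14200) had the largest fall of the group in S1, 1.37 ± 0.36 on the log2 scale (adjusted p = 0.00512), from 77.8, 72.5 and 74.3 CPM in *tt19-8* to 27.5, 29.7 and 29.5. *BCAT3* (AT3G49680), the plastid aminotransferase that closes the cycle, rose in S7 by 0.37 ± 0.09 (adjusted p = 0.00222) and fell in S4 and S5 by 0.26 ± 0.09 and 0.24 ± 0.09. Over the 9 chain-elongation genes, 7 fell in S1 and 7 in S5, where 17.5% and 12.4% of all genes fell. In S7 3 rose (18.1% of all genes) and in S4 1 fell (10.9%), counts that depended on the fit. Without S2 replicate 3 and S5 replicate 3, 9 rose in S7 and 3 fell in S4 (41.9% and 25.2% of all genes called). With only the 6 libraries compared 9 rose and 4 fell (26.3% and 22.4% called), and without the 3 low-oxygen libraries 8 and 3. The S1 calls of *IPMI LSU1*, *IPMI SSU2* and *IPMDH1* held in every alternative, whereas leave-one-out fits lost those of *BAT5* in 5 of 6, of *MAM3* in 6 of 6 and of *MAM1* without S1 replicate 2 (adjusted p = 0.054). Each of the 7 calls in S5 was lost in 2 to 5 of the 6 fits, and that of *BCAT3* in S4 in 6 of 6 (adjusted p from 0.0569 to 0.128). The medians of these 9 genes were -1.11 in S1, -0.98 in S5, 0.68 in S7, -0.08 in S4, -0.70 in S2 and -0.60 in S8. The S2 median was -0.22 without S2 replicate 3 and -1.07 without S2 replicate 1, without S8 replicate 3 that of S8 was -0.40, and without *tt19-8* replicate 3 that of S4 was -0.21. In S2 replicates 1 to 3 *BCAT4* had 66.1, 62.7 and 8.06 CPM and *MAM1* had 64.3, 59.7 and 9.48, so that replicates 1 and 2 lay below the *tt19-8* libraries but near them.

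Aliphatic core synthesis starts with the cytochromes P450 CYP79F1 (AT1G16410) and CYP79F2 (AT1G16400), which turn elongated methionine into aldoximes. CYP79F2 acts on the long-chain substrates, and CYP79F1 on short and long ones. *CYP79F2* had 45.4, 47.7 and 41.4 CPM in *tt19-8*, 82.9, 82.3 and 88.6 in S7 and 18.8, 18.9 and 21.3 in S1. It fell in S1 by 1.19 ± 0.38 on the log2 scale (adjusted p = 0.0198), while the S7 value of 0.92 ± 0.37 did not pass (adjusted p = 0.0592).

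*CYP79F1* was low, with 0 reads in S2 replicate 3 and 8 to 446 reads in the other 23 libraries, and showed a different order of genotypes. It had 6.49, 7.39 and 6.65 CPM in S7 and no more than 1.96 CPM in any library of the other genotypes. It rose in S7 by 3.18 ± 0.58 on the log2 scale, that is 9.06-fold (adjusted p = 0.000212), and held in every alternative. Against Col-0 the S7 difference was 3.17 ± 0.57 (adjusted p = 0.000153). S1 and S4 had 1.53 to 1.59 and 1.73 to 1.96 CPM, above all libraries of *tt19-8* (0.413 to 0.939), without a call in S4 (log2 fold change 1.31 ± 0.57, adjusted p = 0.114). The exons of the neighbours share 0.0378% of 100-base windows for *CYP79F1*, so reads can be told apart nearly everywhere.

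*CYP83A1* (AT4G13770) encodes the next P450, which oxidizes the aldoximes. It had 80.3, 91.7 and 90.5 CPM in S7, 49.3, 43.2 and 40.8 in *tt19-8* and 24.5, 24.9 and 23.9 in S1, in 3 groups without overlap. It rose in S7 by 0.98 ± 0.37 on the log2 scale (adjusted p = 0.045), and all 6 leave-one-out fits lost that call. *UGT74C1* (AT2G31790), a glucosyltransferase of the aliphatic branch, was the one of the 15 genes with its highest mean in Col-0 (32.2, 33.9 and 30.4 CPM), and it fell in S1 by 1.1 ± 0.30 (adjusted p = 0.00743). Of its exon length 18.6% is overlapped by other genes.

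The sulfotransferases SOT17 (AT1G18590) and SOT18 (AT1G74090) make the finished aliphatic glucosinolate. *SOT18* had 51.1, 46.8 and 51.1 CPM in *tt19-8*, 28.2, 26.6 and 27.4 in S1 and 62.9, 64.2 and 69.5 in S7, again without overlap. It fell in S1 by 0.86 ± 0.14 on the log2 scale (adjusted p = 0.000104) and rose in S7 by 0.40 ± 0.14 (adjusted p = 0.0309). *SOT17* fell in S1 by 0.39 ± 0.13 and in S2 by 0.51 ± 0.13 (adjusted p = 0.0258 and 0.00939). Over the 6 core genes of the branch, 4 fell in S1 (17.5% of all genes), 1 fell in S2 (9.6%) and 3 rose in S7 (18.1%). Without S2 replicate 3 and S5 replicate 3, 5 fell and 1 rose in S1, and 1 fell and 1 rose in S4. In that fit 4 fell in S5, 3 in S8 and 1 in S2, and 4 rose in S7. The calls of *SOT18* in S7, *SOT17* in S1 and *CYP79F2* in S1 were lost in 5, 4 and 2 of the 6 leave-one-out fits, with adjusted p up to 0.106, 0.0994 and 0.0611, the last without S1 replicate 1 or replicate 2.

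The core enzymes shared with the indolic branch had a different order of genotypes. *GGP1* (AT4G30530) releases glutamate from the glutathione conjugate, SUR1 (AT2G20610) is the C-S lyase that frees the thiohydroximate, and UGT74B1 (AT1G24100) glucosylates it. All 3 had their highest mean in Col-0, not in S7. *UGT74B1* had 145, 140 and 136 CPM in *tt19-8*, and every library of S1, S2, S4, S5 and S7 lay at or below 121 CPM.

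*UGT74B1* fell in these 5 lines, by 0.56 ± 0.12, 0.67 ± 0.12, 0.44 ± 0.11, 0.39 ± 0.12 and 0.44 ± 0.12 on the log2 scale in the order given (adjusted p from 0.000348 to 0.0173). In S8 the value was -0.25 ± 0.12 (adjusted p = 0.125). No other member fell in as many lines, though the call in S4 was lost without S4 replicate 3 (adjusted p = 0.0596) and that in S5 in 3 of 6 leave-one-out fits. *SUR1* fell from 209, 193 and 211 CPM in *tt19-8* to 115, 113 and 115 in S1, by 0.83 ± 0.13 on the log2 scale (adjusted p = 3.79e-05), and by 0.54 ± 0.13 in S2. *GGP1* fell in S1, S2 and S4 by 0.59 ± 0.11, 0.59 ± 0.11 and 0.56 ± 0.11 (adjusted p = 0.00038, 0.000961 and 0.00153). In S7, where 6 of the 15 chain-elongation and aliphatic core genes and 18.1% of all genes rose, *SUR1* and *GGP1* had -0.10 ± 0.13 and -0.20 ± 0.11 and neither was called. Without S2 replicate 3 and S5 replicate 3, 13 of the 15 rose in S7 and *GGP1* was called as lower, with 41.9% of all genes called.

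Side chains are changed by the flavin monooxygenases FMO GS-OX1 to FMO GS-OX5, which S-oxygenate methylthioalkyl glucosinolates, and by the dioxygenases AOP2 and AOP3, which act on the oxidized chain. *FMO GS-OX4* (AT1G62570) varied least, from 292 to 422 CPM over the 24 libraries. It fell in S1 by 0.27 ± 0.07 and in S4 by 0.21 ± 0.07 on the log2 scale (adjusted p = 0.00679 and 0.0429). *FMO GS-OX3* (AT1G62560) had 20.9, 21.6 and 18.3 CPM in *tt19-8* and 10.9, 10.8 and 11.4 in S1, a fall of 0.87 ± 0.16 (adjusted p = 0.000198), and it also fell in S5 and S8, by 0.50 ± 0.16 and 0.43 ± 0.16. Leave-one-out fits lost the call of *FMO GS-OX4* in S4 in 5 of 6, and of *FMO GS-OX3* in S5 and S8 in 4 and 5 of 6 (adjusted p up to 0.192, 0.12 and 0.136).

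*FMO GS-OX2* (AT1G62540) rose in S2 and fell in S4. S2 had 91.7, 87.5 and 53.2 CPM, S4 had 31.7, 29.9 and 32.8, and *tt19-8* lay between with 56.3, 52.7 and 36.8. It rose in S2 by 0.67 ± 0.17 on the log2 scale (adjusted p = 0.00912), with overlapping values, and fell in S4 by 0.63 ± 0.17 (adjusted p = 0.0146). The S2 call was lost without S2 replicate 1 (adjusted p = 0.0528), and the S4 call in 3 of 6 leave-one-out fits. *FMO GS-OX5* (AT1G12140), which acts on long-chain glucosinolates, fell in S4 by 0.36 ± 0.06 (adjusted p = 0.000242) and in S7 by 0.18 ± 0.06 (adjusted p = 0.0187, lost without S7 replicate 3 or *tt19-8* replicate 1), and 28.2% of its exon length is overlapped by other genes. *FMO GS-OX1* (AT1G65860) was low, at 0.106 to 4.79 CPM, and rose in S7 by 1.55 ± 0.53 (adjusted p = 0.0257), a call lost in 4 of the 6 leave-one-out fits.

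*AOP3* (AT4G03050), which makes hydroxyalkyl glucosinolates in some accessions, showed the largest relative differences of the members. It had 0.441, 0.276 and 0.0569 CPM in *tt19-8* and 0, 0.258 and 0.171 in Col-0. S1 had 3.35, 3.58 and 3.7 CPM, S8 had 2.68, 2.43 and 2.62, and S4 had 2.02, 2.74 and 2.42. These 3 *RDR6* lines lay above all libraries of *tt19-8* and Col-0.

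The rise of *AOP3* was 3.76 ± 0.68 in S1, 3.30 ± 0.69 in S8 and 3.19 ± 0.68 in S4 on the log2 scale (adjusted p = 0.000253, 0.00124 and 0.00251), and all 3 calls held in every alternative. The *tt19-8* values rest on 16, 12 and 2 reads, so these ratios carry a large counting error. In S2, the other *RDR6* line, the values were 1.1, 0.698 and 1.13 CPM, above all *tt19-8* libraries, with a log2 fold change of 1.90 ± 0.70 (adjusted p = 0.0603). S5 had 1.67, 0.999 and 0.0844 CPM (1.86 ± 0.70, adjusted p = 0.0577) and S7 had 0.183, 0.317 and 0.597 (0.58 ± 0.75, adjusted p = 0.571). S7 was 2.71 ± 0.65 below S8 and 3.17 ± 0.65 below S1 (adjusted p = 0.00219 and 0.000376). The tandem neighbour *AOP2* (AT4G03060), the alkenyl-forming enzyme that is known to be inactive in Col-0, lay between 0.0707 and 2.93 CPM and was called in no line.

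**Figure D3:**
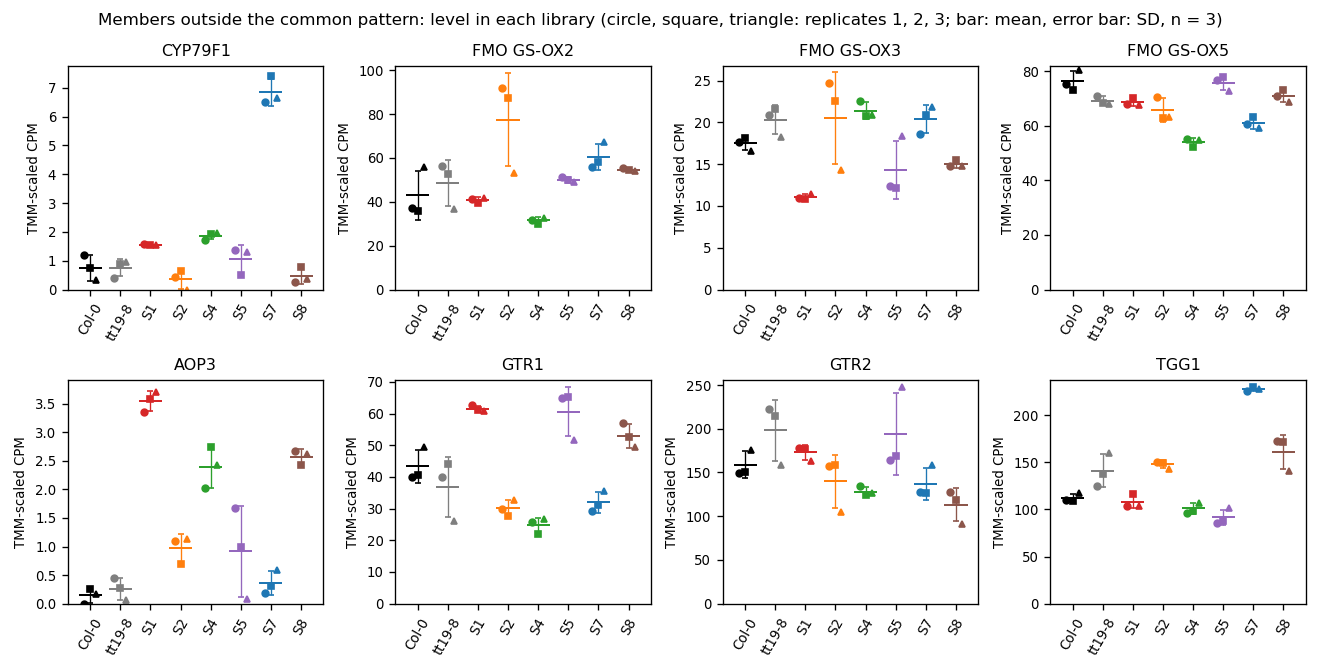
Level of 8 further members (panels) in the 8 genotypes, in CPM on linear axes from 0; circles, squares and triangles are replicates 1, 2 and 3, horizontal bars are means and error bars are SD (n = 3). *AOP3* is high in S1, S4 and S8 (2.02 to 3.7 CPM), *CYP79F1* and *TGG1* stand out in S7, and *GTR1* is high in S1, S5 and S8.

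The transporters GTR1 (AT3G47960) and GTR2 (AT5G62680) import glucosinolates across the plasma membrane and load them into the phloem. *GTR1* had 62.6, 61.2 and 60.9 CPM in S1, 64.9, 65.3 and 51.7 in S5 and 57.1, 52.5 and 49.4 in S8. *tt19-8* had 39.9, 44.2 and 26, and S4 had 25.8, 22.1 and 26.6. All libraries of S1, S5 and S8 were higher than all of *tt19-8*, while S4 overlapped with *tt19-8* replicate 3.

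*GTR1* rose by 0.74 ± 0.14 in S1, 0.72 ± 0.14 in S5 and 0.53 ± 0.14 in S8 on the log2 scale (adjusted p = 0.000359, 0.000874 and 0.00809) and fell by 0.57 ± 0.14 in S4 (adjusted p = 0.00775). The S4 call was lost without S4 replicate 2 or *tt19-8* replicate 2 (adjusted p = 0.0501 to 0.0721). With only the 6 libraries compared, the *GTR1* calls in S8 and in S4 were both lost. S4 and S8, which both carry *RDR6* lesions, differed by -1.1 ± 0.14 (adjusted p = 6.06e-06). Of the exon length of *GTR1* 17% is overlapped by other genes. *GTR2* rose in no line and fell in S2, S4, S7 and S8. The fall was 0.82 ± 0.17 in S8 (adjusted p = 0.00109), from 222, 215 and 158 CPM in *tt19-8* to 128, 118 and 91.3, and 0.63 ± 0.17, 0.53 ± 0.17 and 0.50 ± 0.17 in S4, S7 and S2. The call in S8 held in every alternative, and those in S4, S7 and S2 were lost in 2, 4 and 3 of the 6 leave-one-out fits. In S1 and S8 the transporters therefore did not move alike in the main fit, with *GTR1* risen in both lines and *GTR2* without a call in S1 and fallen in S8.

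Of the myrosinases, TGG1 (AT5G26000) is the thioglucosidase abundant in guard cells and phloem cells. *TGG1* had 226, 230 and 228 CPM in S7, and the next highest library of any genotype had 173 CPM. *tt19-8* had 125, 138 and 160, S4 had 96.2, 98.8 and 107, and S5 had 86, 88 and 101. It rose in S7 by 0.69 ± 0.09 on the log2 scale (adjusted p = 4.43e-06) and fell by 0.62 ± 0.09 in S5, 0.49 ± 0.09 in S4 and 0.39 ± 0.09 in S1 (adjusted p = 5.18e-05, 0.000666 and 0.00207), all held in every alternative.

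The summed level of 5 guard-cell markers was 20.8 to 22.1 CPM in S7, 22.5 to 26.1 in S8, 18.1 to 23.6 in S5, 12.7 to 15.4 in S4, 13.4 to 14.5 in S1 and 12.3 to 15.3 in *tt19-8*, and its part in the *TGG1* values was not tested. In S8 *TGG1* had 0.19 ± 0.09 (adjusted p = 0.116). The guard-cell marker *GC1* was under 1 CPM in every genotype. *TGG2* (AT5G25980), the other leaf myrosinase on the list, was low at 0.042 to 2.01 CPM. It rose in S4 by 1.80 ± 0.54 on the log2 scale, with 2.01, 1.89 and 1.42 CPM against 0.716, 0.253 and 0.569 in *tt19-8* (adjusted p = 0.0235, lost in 3 of 6 leave-one-out fits).

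Across the lines, 8 members were called in opposite directions in different lines: *MYB28*, *BCAT4*, *BCAT3*, *IPMI LSU1*, *SOT18*, *FMO GS-OX2*, *GTR1* and *TGG1*. Only for *IPMI LSU1* and *TGG1* did calls in both directions hold in every alternative. *MYB28*, *BCAT4* and *FMO GS-OX2* had no call against *tt19-8* that held throughout, and the other members held in 1 direction only. *IPMI SSU3* and *AOP2* were called in none. From 18.7% (S4) to 37.3% (S7) of all genes were called in a line, and how many of them were called both ways was not counted.

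Set against Col-0 instead, and so with the *tt19-8* allele and the suppressor lesion together, more members were called as lower in each line than against *tt19-8*. S1 had 2 members risen and 20 fallen (median -0.94), where 18.2% of all genes rose and 18.2% fell. S5 had 2 and 17 (median -0.49), against 13% and 12.2%. S2 had 3 and 16 (median -0.72), against 14% and 13.3%. The S2 median was -0.46 without S2 replicate 3, and with only the 6 libraries compared 2 rose and 5 fell.

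S4 had 2 risen and 12 fallen against Col-0 (median -0.45), with 20.6% and 22.3% of all genes. S8 had 2 and 11 (median -0.45), with 14.8% and 14.4%. S7 had 3 and 4 (median 0.15, or 0.08 without Col-0 replicate 3), with 22.3% and 20.4%. Of the 15 chain-elongation and aliphatic core genes, 14 fell in S1, 11 in S5, 8 in S2, 8 in S8 and 5 in S4, and 1 rose in S7, *CYP79F1*. These comparisons share the Col-0 libraries, of which replicate 3 was the lowest for 15 of the 15 genes.

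*MYB28* was below Col-0 in 5 lines, by 1.48 ± 0.30 in S1, 1.5 ± 0.31 in S5, 1.48 ± 0.31 in S8, 1.25 ± 0.30 in S2 and 0.87 ± 0.30 in S4 on the log2 scale (adjusted p from 0.000658 to 0.0224). The S4 call was lost in 3 of 6 leave-one-out fits (adjusted p from 0.0598 to 0.0799) and the S2 call with only the 6 libraries compared (adjusted p = 0.0896). In S7 the difference was 0.18 ± 0.29 (adjusted p = 0.644). *AOP3* was above Col-0 in S1, S8, S4, S2 and S5, by 4.62 ± 0.73, 4.16 ± 0.73, 4.05 ± 0.73, 2.76 ± 0.74 and 2.72 ± 0.75. These rest on 0, 12 and 7 reads in Col-0 and, in S5, on 101, 26 and 3. The S5 call was lost without S5 replicate 1 (adjusted p = 0.136), and with only the 6 libraries compared the S5 and S2 calls were lost (adjusted p = 0.0926 and 0.0551). *TGG1* was above Col-0 in S7, S8 and S2, by 1.02 ± 0.09, 0.53 ± 0.09 and 0.40 ± 0.09.

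The lines were also compared with one another, with S8, an *RDR6* nonsense line, as the reference. Against S8, S1 had 2 members higher and 9 lower (all genes 13.3% and 14.7%), S2 had 4 lower (4.26% and 6.45%), S4 had 3 higher and 6 lower (16.9% and 18.7%) and S5 had 1 and 2 (7.58% and 7.27%). S7 had 17 higher and 3 lower than S8, where 20.5% and 19.4% of all genes did so. Of the 15 chain-elongation and aliphatic core genes 14 were higher in S7 than in S8, with a median of 1.29, the exception being *SOT17*.

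S7 was set against S1 and S5 as well, in comparisons added after the levels had been seen. Against S1, 22 members were higher and 3 lower in S7 (all genes 24% and 22.9%), and against S5 18 were higher and 3 lower (22.5% and 22.7%). All 15 of the chain-elongation and aliphatic core genes were higher in S7 than in S1 (median 1.79), and 14 of the 15 were higher than in S5 (median 1.71). The ratio of S7 to S1 was 4.51-fold for *BCAT4*, 4.3-fold for *CYP79F2*, 4.23-fold for *MAM1*, 4.17-fold for *IPMDH1* and 1.39-fold for *BCAT3*. In all 3 comparisons *GTR1* and *FMO GS-OX5* were lower in S7. Against S1, 24 of the 25 calls held in every alternative fit, and 23 had an adjusted p under 0.01.

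The 3 nonsense lines of *RDR6* were not alike in this pathway. *GTR1* was lower in S2 than in S8 by 0.82 ± 0.14 on the log2 scale (adjusted p = 0.000588), and S1 was lower than S8 in *GGP1*, *SUR1*, *UGT74B1*, *SOT17*, *SOT18*, *IPMI LSU1* and *TGG1*, among others. Of these 7, the call of *UGT74B1* was lost in 5 of 6 leave-one-out fits (adjusted p up to 0.141) and with the replicate number as a block (adjusted p = 0.0536), while the other 6 held in every alternative. Without S2 replicate 3, S2 had 4 members higher and 3 lower than S8, and without replicate 3 of both S2 and S5 it had 9 higher and 5 lower, with 17.7% of all genes called.

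Seed storage transcripts, which mark seed material or late embryo identity, differed between the genotypes and also between the libraries of S2, S5, S7 and Col-0. Their summed level over 5 genes was 5497 to 5758 CPM in S1, 461 to 902 in S7, 59.9 to 151 in Col-0 and 1076 to 1244 in *tt19-8*. In S2 it was 1358, 1417 and 5301 CPM and in S5 it was 2012, 2165 and 905, in replicates 1 to 3. S2 replicate 3 was thus high in seed storage and lowest of the S2 libraries in 15 of the 15 aliphatic genes, and S5 replicate 3 was low in seed storage and highest of the S5 libraries in 14 of 15. S7 replicate 3 did not show this: its seed storage was 1.9 times the mean of replicates 1 and 2, and its 15 aliphatic genes summed to 1.01 times theirs. In all, 5 of the 5 seed storage genes rose in *tt19-8* against Col-0 and in S1 against *tt19-8*, where 7.13% and 16.5% of all genes rose. Their part in the members' differences was not tested.

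**Figure D4:**
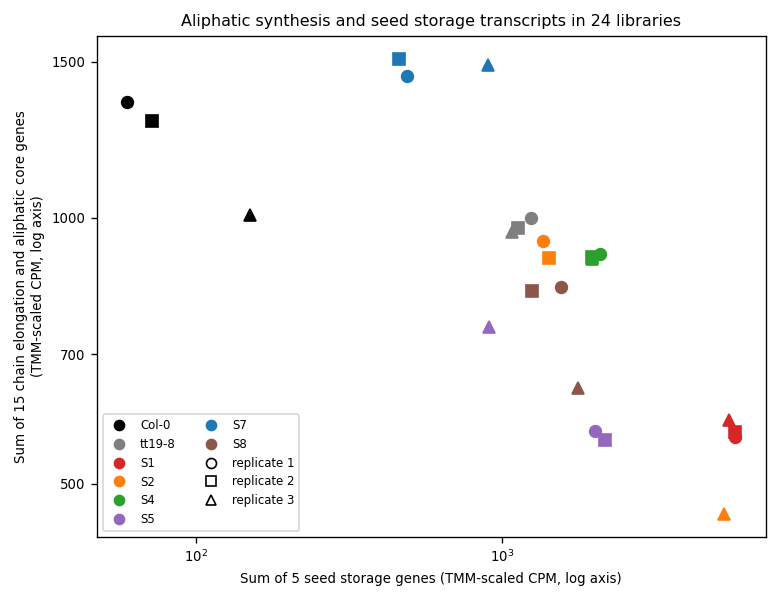
Summed level of the 15 chain-elongation and aliphatic core genes (vertical axis, CPM, log scale) against the summed level of 5 seed storage genes (horizontal axis, CPM, log scale), 1 point per library, coloured by genotype and shaped by replicate. S1 and S2 replicate 3 lie at the lower right, S7 at the top (1446 to 1511 CPM) and Col-0 at the far left (59.9 to 151 CPM of seed storage).

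Other marker lists moved as well. The summed level of 5 root markers was 235 to 242 CPM in *tt19-8*, 90.7 to 97.3 in S1 and 164 to 199 in S7. That of 5 shoot markers was 151 to 156 CPM in *tt19-8*, 119 to 124 in S1 and 277 to 321 in S7, and 3 of the 5 shoot markers were under 1 CPM in *tt19-8*. The 9 low-oxygen genes summed to 6405 to 6781 CPM in S4 and to 1017 to 1039 in S1. In replicates 1 to 3 they summed to 2030, 1965 and 9582 CPM in *tt19-8* and to 3629, 3959 and 1485 in S7. In S1 against *tt19-8* 9 of 9 fell, where 17.5% of all genes fell. The part of these differences in the members' results was not tested.

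Genes that neighbour the members in the pathway were taken from further lists. Of 10 other aliphatic pathway genes, 4 fell in S1, where 17.5% of all genes fell, 3 in S2 (9.6%) and 3 in S4 (10.9%). In S7 3 of the 10 rose, where 18.1% of all genes rose. *GSTU20* (AT1G78370), a glutathione transferase assigned to the conjugation step, followed the pattern of the core genes, with 98, 121 and 125 CPM in S7, 55.7, 55.9 and 59.1 in *tt19-8* and 28.6, 33.5 and 28.7 in S1. It rose in S7 by 1.01 ± 0.20 on the log2 scale (adjusted p = 0.000495), fell in S1 by 0.91 ± 0.20 (adjusted p = 0.00156) and fell in *tt19-8* against Col-0 by 0.87 ± 0.20 (adjusted p = 0.00704). *GSL-OH*, which hydroxylates alkenyl side chains, went the other way in S7, where it fell by 1.11 ± 0.12, and it rose in S8 by 0.67 ± 0.12. *GTR3*, a relative of the transporters that moves indolic glucosinolates too, fell in S1, S2, S4, S7 and S8, and 27% of its 100-base windows are shared with another gene.

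Of 15 genes of the indolic branch 12 fell in S7, where 19.2% of all genes fell, 11 fell in S2 (9.6%), 11 in S4 (10.9%) and 8 in S1 (17.5%). In S5 4 fell (12.4%) and in S8 3 fell (13.1%), a share nearer that of all genes. With only the 6 libraries compared, 2 of the 15 fell in S2. *CYP79B3*, which makes the indolic aldoxime from tryptophan, and *MYB34*, an activator of that branch, fell in all 6 lines. In S7 *CYP79B3* fell by 0.89 ± 0.28 on the log2 scale (adjusted p = 0.0148), where the aliphatic counterpart *CYP79F1* rose by 3.18 ± 0.58. *UGT74B1*, the shared glucosyltransferase, was lower in S7 together with the indolic genes.

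Of 6 sulfur starvation markers, 6 fell in S4 and 5 in S2, where 10.9% and 9.6% of all genes fell, with medians of -2.78 and -1.36. With only the 6 libraries compared, 1 of the 6 fell in S2. *SDI1*, which represses aliphatic glucosinolate synthesis when sulfur is short, was at 1.16, 1.24 and 1.8 CPM in S4 and at 16.2, 12.5 and 7.82 in *tt19-8* (log2 fold change -3.15 ± 0.40, adjusted p = 1.41e-05). In the same line 1 of the 15 chain-elongation and aliphatic core genes was called, *BCAT3*, which fell. Without S2 replicate 3 and S5 replicate 3, 1 of the 15 rose and 4 fell in S4 (25.2% of all genes called). With only the 6 libraries compared 1 rose and 5 fell (22.4% called).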

How the data were processed

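Whole seedlings of 8 *Arabidopsis* genotypes in AIC were sequenced, 3 libraries each. The deposited values were raw read counts per gene, not normalized, which the authors made by checking paired-end reads with FastQC 0.11.5, aligning them to TAIR10 with Hisat2 and counting with FeatureCounts. Whether strand was used and how reads on overlapping genes or several loci were treated is not given in the sources used here.

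The members and all gene lists were chosen with earlier results of these data known. Groups and replicate numbers came from the labels. Counts were tested in R 4.3.3 with edgeR 4.0.16 (limma 3.58.1): filterByExpr by genotype left 22089 of 33331 identifiers, TMM scaled the libraries, all 24 libraries entered 1 quasi-likelihood model with a mean for each genotype, and two-sided F tests were adjusted by Benjamini-Hochberg over all genes tested in each of 20 contrasts, of which 18 were planned and 2 (S7 against S1 and S5) were added after seeing the data. An adjusted p under 0.05 was a call. The standard error is the log2 fold change divided by the square root of F, and CPM are TMM-scaled. The common biological coefficient of variation was 14.2%. Tested on simulated counts for *tt19-8* against Col-0 (21362 genes), the procedure recovered 88 of the genes changed 2-fold, 98 of those changed 4-fold, of 200 changed in all, and called 13 of 21162 unchanged genes. The changed genes were drawn at random from those at 1 CPM or more in Col-0, and no library was simulated as standing apart. This recovery need not hold for members with a wide spread between libraries.

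Totals of 25.8 to 73.4 M counts put 3 counts, used as the detection floor, at 0.0414 to 0.116 CPM; floors and counting errors cover sampling only, since PCR copies are not independent molecules. Positions and exon lengths were read from the RefSeq annotation of TAIR10.1, in which 28932 of the identifiers matched a locus tag, and the lengths of the authors' own gene models may differ. Every member is named. Of each other list at most 4 genes were to be named, those called in most of the 7 main contrasts, with *SUS4* and *ADH1* added. Outside this rule *GC1* was named, and so were *ESM1* and *NSP2*, picked from the list of breakdown genes after their values had been seen.

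Alternatives were DESeq2 1.42.0, RLE scaling, no filter on low counts, the replicate number as a block and a threshold of 0.01. Others used only the 6 libraries compared, left out each library, or left out the 3 low-oxygen libraries together (replicate 3 of *tt19-8*, S2 and S8). Those 3 were high in low-oxygen genes beside their own companions. The S4 libraries, with 6405 to 6781 CPM of these genes, were kept. Leaving out replicate 3 of S2 and S5 together was added after seeing the data. Same-numbered libraries deviated together, with every correlation over 0.1, in 1 of 20 contrasts, S2 against *tt19-8* (0.118, 0.102 and 0.229).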

Additional observations from a re-analysis of the deposited data

Results flagged for a closer look

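A difference between lines in opposite responses was tested as the direct contrast of the 2 lines, with *tt19-8* cancelling out. *MYB28* was higher in S7 than in S8 by 1.66 on the log2 scale, in S7 than in S1 by 1.67 and in S7 than in S5 by 1.68 (adjusted p = 0.000224, 0.000125 and 0.000149), its call against *tt19-8* being a rise in S7 and a fall in the other 3 lines. S7 was also above S1 in *BCAT4* by 2.17, in *IPMI LSU1* by 0.74, in *SOT18* by 1.26 and in *TGG1* by 1.08 (adjusted p = 0.000286, 3.13e-08, 4.04e-07 and 6.03e-09). S7 was above S5 in *BCAT3* by 0.61, in *IPMI LSU1* by 0.58 and in *TGG1* by 1.31 (adjusted p = 9.94e-06, 1.08e-06 and 9.95e-10). *GTR1* differed between S4 and S8 by -1.10 (adjusted p = 6.06e-06), with a fall in S4 and a rise in S8. These 11 pairs were picked because both lines were called against *tt19-8*, in opposite directions. Both of those calls held in every alternative only for *IPMI LSU1* in S7 and S1 and for *TGG1* in S7, S1 and S5. The direct contrast uses the same libraries of the 2 lines, so a low adjusted p was likely beforehand. The contrasts of S7 with S1 and S5 were added after the levels had been seen.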

How the results depend on the processing

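Counts of called members are given for each contrast as reported and where an alternative moved them by over 1.5 times. With only the 6 libraries compared in the fit, the count went from 2 to 4 for *tt19-8* against Col-0, from 6 to 1 for S2 and from 5 to 9 for S8 against *tt19-8*, from 19 to 7 for S2, from 14 to 27 for S4, from 7 to 13 for S7 and from 13 to 20 for S8 against Col-0, and from 11 to 18 for S1, from 4 to 2 for S2 and from 9 to 16 for S4 against S8. Without the 3 low-oxygen libraries it became 7 for *tt19-8* against Col-0, 20 for S7 and 8 for S8 against *tt19-8*, 24 for S4, 12 for S7 and 21 for S8 against Col-0, and 18 for S1 and 9 for S5 (from 3) against S8. Without replicate 3 of S2 and S5 it became 11 for *tt19-8* against Col-0, 22 for S5, 20 for S7 and 16 for S8 against *tt19-8*, 24 for S4, 14 for S7 and 22 for S8 against Col-0, and 18 for S1, 14 for S2, 19 for S4 and 14 for S5 against S8. At an adjusted p under 0.01 it was 0 for *tt19-8* against Col-0, 13 for S1, 5 for S4, 2 for S5, 5 for S7 and 3 for S8 against *tt19-8*, 9 for S4, 12 for S5 and 5 for S8 against Col-0, and 7 for S1 against S8. With 1 library left out at a time the counts ranged from 0 to 3 for *tt19-8* against Col-0, from 13 to 16 for S1, 5 to 8 for S2, 5 to 9 for S4, 2 to 18 for S5, 6 to 9 for S7 and 3 to 5 for S8 against *tt19-8*, from 19 to 22 for S1, 14 to 21 for S2, 9 to 14 for S4, 12 to 22 for S5, 6 to 6 for S7 and 4 to 14 for S8 against Col-0, from 6 to 10 for S1, 3 to 7 for S2, 8 to 9 for S4, 2 to 3 for S5 and 17 to 19 for S7 against S8, from 24 to 25 for S7 against S1, from 19 to 22 for S7 against S5 and from 28 to 30 over the 8 genotypes. When the pairing by replicate number entered the fit as a block, it left 6 calls in S2 against *tt19-8*, though *GTR2* went from an adjusted p of 0.039 to 0.051. Of 255 calls over the 20 contrasts 155 held at the threshold of 0.05 in every alternative fit and 100 were lost in at least 1. The cause of these shifts was not tested. *AOP2*, *AOP3*, *TGG2* and, outside S7, *CYP79F1* are limited by depth.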

Other observations

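*ESM1* (AT3G14210), which steers glucosinolate breakdown towards isothiocyanates, was on the list of breakdown genes and was singled out after its values had been seen. It does not stand for that list, in which *NSP3* was called in 6 of the 7 main contrasts and *NSP1*, *NSP4* and *NSP5* in 4 each. *ESM1* was not among these. It had 44.5, 47.2 and 16.5 CPM in the S7 libraries and at most 0.599 CPM in any library of the other genotypes, so that S7 was separate from every other genotype. *NSP2* (AT2G33070), a nitrile specifier gene also singled out after the fact, had 271, 261 and 259 CPM in S1, 33.6, 32.5 and 23.3 in *tt19-8*, 2.94, 2.63 and 5.25 in Col-0 and 2.25, 2.18 and 9.72 in S7. It rose in S1 by 3.14 ± 0.47 on the log2 scale (adjusted p = 3.56e-05) and fell in S7 by 2.54 ± 0.49 (adjusted p = 0.000376). Within S2 it stood at 13.8, 15.6 and 53.2 CPM, with replicate 3 the highest, as for the seed storage genes.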
